A study of Mus musculus with 6 samples.

Results

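The genes described here encode the NF-kB transcription factors and the proteins that hold them back. Of the 10 genes listed, 9 had at least 1 probe set that the array annotation assigned to that gene alone, which gave 17 of the 45101 probe sets of the table. Nfkb1 was not analysed here. Nfkbia was read by 5 probe sets, Nfkb2, Nfkbib, Nfkbie and Tnfaip3 by 2 each, and Rel, Rela, Relb and Bcl3 by 1 each.

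NF-kB factors are dimers of Rel-family proteins: RelA, c-Rel and RelB, and the DNA-binding fragments cut from the Nfkb1 and Nfkb2 precursors. In resting T cells the inhibitors IkB alpha, beta and epsilon keep most dimers in the cytoplasm. Signals from the antigen receptor and CD28 activate the IkB kinase, which marks these inhibitors for destruction, and the freed dimers then induce survival, cytokine and adhesion genes as well as their own inhibitors. RelB with the Nfkb2 product serves a slower route used by several receptors of the TNF receptor family.

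The tested cells were T cells with the 5C.C7 receptor, a transgenic T cell receptor specific for a moth cytochrome c (MCC) peptide. CTLA-4 KO donors were 5C.C7, RAG2-/-, CD45.1 and CTLA-4-/-, and wild type donors were 5C.C7, RAG2-/- and CD45.1 with CTLA-4 intact, so both groups lacked RAG2. Cells of either genotype were put into B10.A recipients, stimulated in vivo by MCC peptide with LPS, and sorted 4 days later. There were 3 CTLA-4 KO and 3 wild type arrays, titled as biological replicates, each labelled from 2 µg of RNA. The age of the animals, the gate of the sort and whether each array stands for 1 animal are not given in the sources used here. Nothing says that the recipients' own lymphocytes were removed. CTLA-4 is an inhibitory receptor of activated T cells.

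All arrays had a trimmed mean intensity of 500.003, and their number limits the precision of every value. Ctla4 had intensities of 812, 791 and 784 in CTLA-4 KO cells, against 5332, 4787 and 4587 in wild type cells. That was 16.2% of the wild type mean, with a log2 difference of −2.60 ± 0.10 (SE, limma adjusted p = 1.45e-06), and was the low level the genotype label gives; where the probe set lies relative to the deletion is not stated. The 9 T cell markers analysed were at 3632 or more on every array. Of 24 markers of other cell types none was at 0, and apart from Cd22 none exceeded 281 on any array. The B cell markers summed to 857 to 1330 in CTLA-4 KO cells and 402 to 640 in wild type cells, and without Cd22 to 163 to 280 in CTLA-4 KO cells and 224 to 379 in wild type cells. Their part in the results below was not tested. Xist, transcribed from the inactive X chromosome of female cells, had 12599 in CTLA-4 KO replicate 2 and 14608 in wild type replicate 2, and at most 107 on the other 4 arrays.

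In CTLA-4 KO cells 1 of the 17 NF-kB probe sets changed, that of Bcl3, an atypical nuclear IkB protein that binds NF-kB dimers on DNA and can activate or repress their targets. It was 1.86-fold higher by the ratio of mean intensities. Neither the subunits Rela, Relb, Rel and Nfkb2 nor the classical inhibitors passed the threshold, except for 1 Nfkbia probe set when replicate number was a block or the Gapdh 5' to 3' ratio a term. The groups did not overlap, with CTLA-4 KO higher, in 3 of the 5 Nfkbia probe sets and 1 of the 2 Nfkbib probe sets, as in 9.46% of all tested probe sets (21.0% in either direction). In bulk samples such as these, a different number of cells that express a gene and a different amount of RNA per cell cannot be told apart. The test was limma's across 27022 probe sets, with a threshold of 0.05 on the p adjusted over all of them, which 1.25% of all probe sets passed in either direction, 0.785% higher and 0.470% lower.

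Bcl3 had intensities of 1399, 1047 and 971 in CTLA-4 KO cells, against 608, 673 and 558 in wild type cells. Every CTLA-4 KO array lay above every wild type array, and the lowest CTLA-4 KO value stood clear of the highest wild type value. The log2 difference, on the log2(intensity + 16) scale used throughout, was 0.86 ± 0.16 (SE, n = 3 arrays each, limma adjusted p = 0.0298), with a 95% interval of 0.52 to 1.21. An exact two-sided permutation test of the means gave p = 0.1, the smallest that 3 against 3 arrays allow. In replicate pairs 1, 2 and 3 the difference was 1.18, 0.63 and 0.78. With replicate number as a block the adjusted p was 0.00148.

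Leaving out 1 array at a time, the call held only without CTLA-4 KO replicate 3, with adjusted p between 0.0422 and 0.12 over the 6 fits, and it was lost when dim probe sets were kept in the test (0.0701), without an intensity trend (0.143), without moderation (0.243) and in replicates 1 and 3 alone (0.199). Adding each array's Actb 5' to 3' ratio, a sign of RNA integrity, to the model gave 0.99 ± 0.22 with an adjusted p of 0.198. The ratio was 0.567, 0.691 and 0.544 in CTLA-4 KO arrays and 0.418, 0.41 and 0.584 in wild type arrays. In all 20 alternative settings the Bcl3 difference was positive, from 0.71 without CTLA-4 KO replicate 1 to 0.99.

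**Figure D1:**
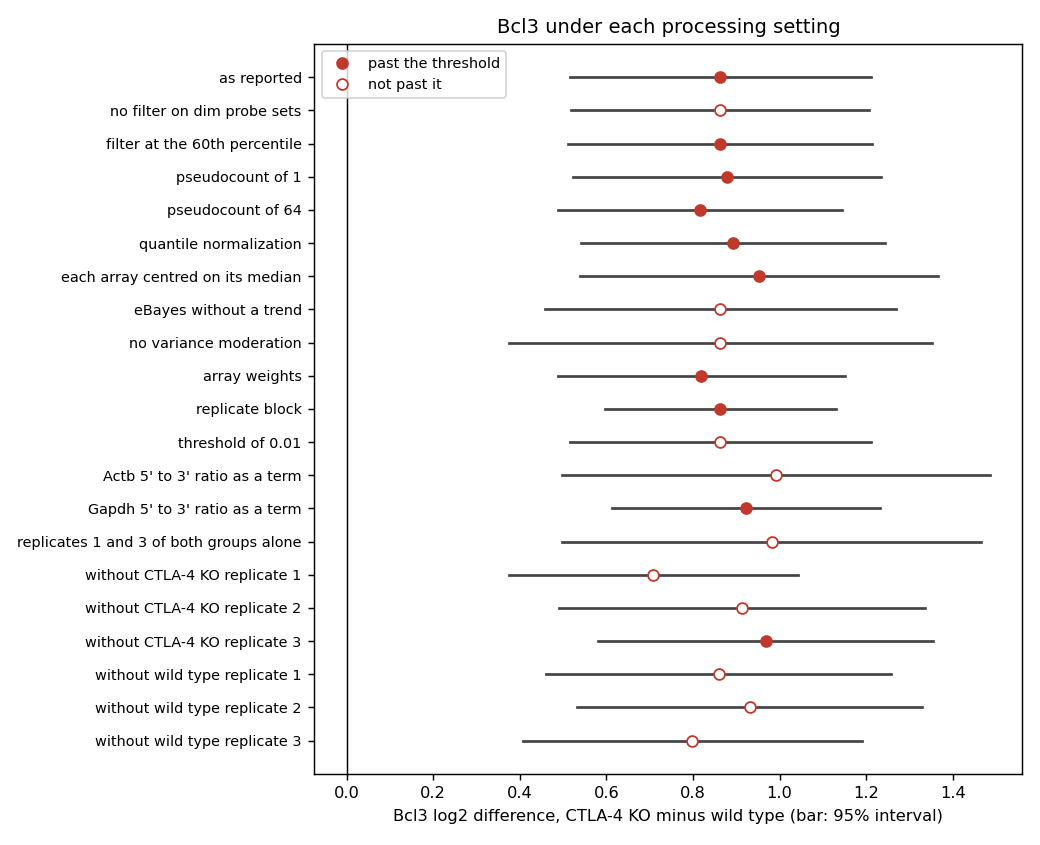
Log2 difference of Bcl3 (CTLA-4 KO minus wild type, horizontal axis) under each processing setting (rows), with 95% intervals as bars and filled points where the setting's threshold was passed. Points lie between 0.71 and 0.99 and every interval is above 0, while the adjusted p passes in some settings and not in others.

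The promoters of Bcl3, Nfkbia and Rela are shown in full because they belong to the member that changed, to the inhibitor that read higher in part of its probe sets, and to the subunit with the narrowest interval. Sequences are from RefSeq (GRCm38.p6), run 5′ to 3′ on the gene's strand from 250 bases before the annotated start to 50 after it, and capitals mark matches to the 10-base kappa B consensus on either strand.
Bcl3 (chr7:19822706-19823005, minus strand): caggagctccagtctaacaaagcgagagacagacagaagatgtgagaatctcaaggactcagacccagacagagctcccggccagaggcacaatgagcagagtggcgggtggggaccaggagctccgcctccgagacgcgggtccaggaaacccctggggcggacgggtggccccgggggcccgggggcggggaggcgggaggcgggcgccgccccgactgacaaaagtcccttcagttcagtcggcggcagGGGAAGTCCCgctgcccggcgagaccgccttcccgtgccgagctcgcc
Nfkbia (chr12:55492598-55492897, minus strand): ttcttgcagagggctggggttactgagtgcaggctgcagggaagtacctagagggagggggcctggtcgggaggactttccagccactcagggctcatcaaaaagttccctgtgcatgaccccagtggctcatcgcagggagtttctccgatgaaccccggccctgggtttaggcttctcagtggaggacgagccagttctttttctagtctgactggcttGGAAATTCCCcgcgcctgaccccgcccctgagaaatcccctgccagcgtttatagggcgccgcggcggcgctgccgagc
Rela (chr19:5637291-5637590, plus strand): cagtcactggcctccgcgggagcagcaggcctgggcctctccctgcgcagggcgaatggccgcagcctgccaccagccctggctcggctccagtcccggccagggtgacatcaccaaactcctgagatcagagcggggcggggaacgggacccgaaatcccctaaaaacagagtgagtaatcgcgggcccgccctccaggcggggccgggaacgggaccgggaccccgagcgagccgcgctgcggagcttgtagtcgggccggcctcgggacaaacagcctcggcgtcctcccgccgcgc

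The Bcl3 match began at 2 counted from the annotated start as 0, and it matched on both strands. The Nfkbia match began at −29, on the strand opposite to the gene. The Rela window held no match, which says only that these letters were not found in it. A match is a description of letters and not a measured binding site.

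Promoters of 8 of the 9 genes were in the table, 11 windows in all, and 8 windows from 6 genes held at least 1 match, in 10 distinct stretches. The same consensus was found in 8.46% of all 32851 windows. A looser pattern that fixes only the 3 leading G and the 2 closing C of those 10 bases, and so includes the consensus, was in 50.8% of them. The remaining stretches of the subunit and inhibitor genes, each with 10 bases on either side, are given here to show how they differ from one another.
Nfkb2 (chr19:46304688-46304718, plus strand): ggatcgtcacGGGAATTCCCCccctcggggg
Nfkb2 (chr19:46304716-46304745, plus strand): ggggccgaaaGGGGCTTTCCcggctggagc
Nfkb2 (chr19:46305449-46305478, plus strand): tccgacggcaGGAATGTCCCcacaaaagcc
Nfkb2 (chr19:46305695-46305724, plus strand): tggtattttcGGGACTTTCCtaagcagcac
Rel (chr11:23771041-23771071, minus strand): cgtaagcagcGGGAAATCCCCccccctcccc
Nfkbie (chr17:45555584-45555613, plus strand): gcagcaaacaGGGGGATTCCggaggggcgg
Tnfaip3 (chr10:19015516-19015545, minus strand): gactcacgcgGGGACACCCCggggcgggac
Tnfaip3 (chr10:19015403-19015432, minus strand): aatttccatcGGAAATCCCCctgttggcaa

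Rela (1419536_a_at), an activating subunit present in most cells, had intensities of 5736, 5773 and 5357 in CTLA-4 KO cells, against 5767, 5722 and 5267 in wild type cells. The groups overlapped almost entirely. The log2 difference was 0.01 ± 0.09 (adjusted p = 0.971), with an interval of −0.19 to 0.21, or 0.879-fold to 1.15-fold. In replicate pairs 1, 2 and 3 it was −0.01, 0.01 and 0.02, so each pair read nearly the same level.

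Rel encodes c-Rel, the subunit best known for driving Il2 and other cytokine genes in lymphocytes. Its probe set 1420710_at had 600.5, 579 and 643 in CTLA-4 KO cells, against 683, 499.97 and 471 in wild type cells. Wild type replicate 1 was the highest array of all, and the groups overlapped. The log2 difference was 0.15 ± 0.16 (adjusted p = 0.696), and the interval of −0.20 to 0.51 leaves room for a 1.42-fold higher level.

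Relb (1417856_at), the subunit of the slower route, had 1672, 1847 and 1602 in CTLA-4 KO cells, against 1885, 1927 and 1809 in wild type cells. CTLA-4 KO replicate 2 lay inside the wild type range and the other 2 arrays below it. The log2 difference was −0.14 ± 0.11 (adjusted p = 0.586) and was negative in all 3 pairs. Both Nfkb2 probe sets, which read the partner of RelB, overlapped between the groups. Probe set 1425902_a_at had 547, 492 and 413 in CTLA-4 KO cells, against 515, 402 and 483 in wild type cells. Probe set 1429128_x_at had 364, 335 and 464 in CTLA-4 KO cells, against 298, 389 and 549.6 in wild type cells. Their log2 differences were 0.05 ± 0.16 and −0.06 ± 0.22 (adjusted p = 0.916 and 0.932).

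**Figure D2:**
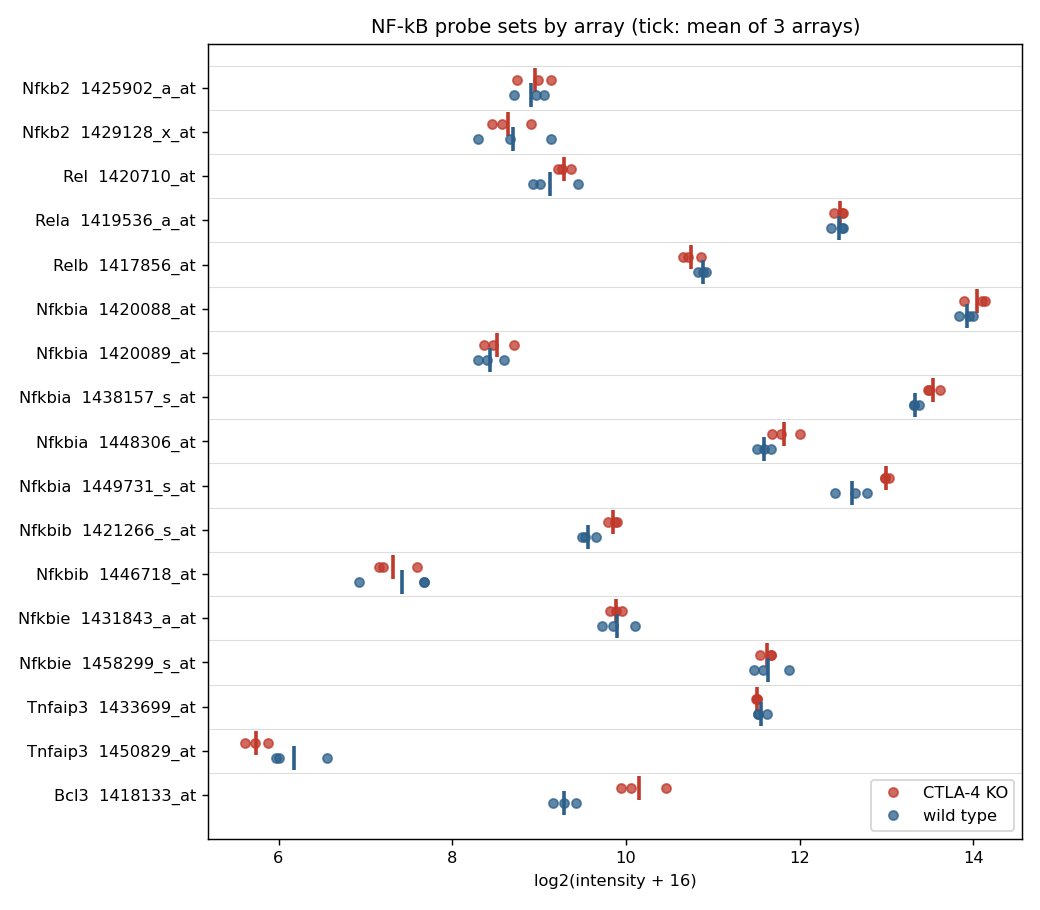
Log2(intensity + 16) of the 17 NF-kB probe sets (rows) on each array, CTLA-4 KO above wild type in each row, with ticks at the means of 3 arrays. The Bcl3 points of the genotypes are apart, while those of Rela lie on top of each other; levels of different rows cannot be compared, since each probe set has its own response.

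Nfkbia encodes IkB alpha, the fast inhibitor that NF-kB itself induces. The probe set with the smallest p, 1449731_s_at, had 8358, 8071 and 8093 in CTLA-4 KO cells, against 7024, 6385 and 5401 in wild type cells. The CTLA-4 KO arrays were close together and above all wild type arrays, which spread more widely. The log2 difference was 0.39 ± 0.11, 1.31-fold, with an adjusted p of 0.107. With the replicate block the adjusted p was 0.0209, and with the Gapdh 5' to 3' ratio as a term it was 0.0486.

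Probe set 1438157_s_at of Nfkbia had 11486, 11438 and 12581 in CTLA-4 KO cells, against 10578, 10193 and 10186 in wild type cells. Probe set 1448306_at had 4092, 3508 and 3261 in CTLA-4 KO cells, against 3243, 2899.7 and 3059 in wild type cells. In both, the groups did not overlap, but the gap between them was narrow in the second. Their log2 differences were 0.20 ± 0.08 and 0.23 ± 0.11 (adjusted p = 0.272 and 0.344).

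The other Nfkbia probe sets overlapped. The brightest, 1420088_at, had 17616, 15263 and 18048 in CTLA-4 KO cells, against 15776, 16373 and 14599 in wild type cells, with CTLA-4 KO replicate 2 inside the wild type range. The dimmest, 1420089_at, had 339.8, 314 and 405 in CTLA-4 KO cells, against 370.3, 323 and 299.8 in wild type cells. Their log2 differences were 0.12 ± 0.09 and 0.09 ± 0.16. All 5 estimates for this gene were thus positive, from 0.09 to 0.39, although that of 1420089_at was −0.01 without CTLA-4 KO replicate 3, and probe sets of 1 gene read the same RNA and are no replicates. The mean of the 5 gave 0.21 ± 0.08 (limma adjusted p = 0.242; blocked by replicate, 0.136).

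Nfkbib encodes IkB beta, an inhibitor with slower turnover. Its brighter probe set, 1421266_s_at, had 921, 870.5 and 936 in CTLA-4 KO cells, against 792, 726 and 703 in wild type cells. The groups did not overlap, and the log2 difference was 0.29 ± 0.12 (adjusted p = 0.27; blocked by replicate, 0.116). The dimmer one, 1446718_at, had 177, 132 and 127 in CTLA-4 KO cells, against 105, 187.7 and 187.9 in wild type cells. Its pairs went both ways, with 0.67 in pair 1 and −0.46 and −0.51 in pairs 2 and 3. The log2 difference was −0.10 ± 0.25 (adjusted p = 0.885). Its interval of −0.65 to 0.45 includes the estimate of the brighter probe set, so this dim probe set is too imprecise to tell whether the 2 differ.

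Nfkbie encodes IkB epsilon, which also binds c-Rel and RelA dimers. The brighter probe set, 1458299_s_at, had 3233, 2982 and 3254 in CTLA-4 KO cells, against 3038, 3742 and 2821 in wild type cells, and 1431843_a_at had 978, 886 and 931 in CTLA-4 KO cells, against 1082, 908 and 834 in wild type cells. In both, wild type arrays reached above and below the range of the CTLA-4 KO arrays. Both log2 differences were −0.01, with SE of 0.12 and 0.13.

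Tnfaip3 encodes A20, a ubiquitin-editing enzyme that shuts off signalling to the IkB kinase. Its bright probe set, 1433699_at, had 2882, 2905 and 2899 in CTLA-4 KO cells, against 2928.3, 2928.9 and 3147 in wild type cells. The groups did not overlap, yet the difference was small, at −0.05 ± 0.09 (adjusted p = 0.837), and its interval of −0.26 to 0.15 spans 0.838-fold to 1.11-fold. With each array centred on its median the sign turned, to 0.04, as did those of both Nfkbie probe sets and 1429128_x_at of Nfkb2. The dim probe set, 1450829_at, close to the filter floor of 35.4, had 37, 33.2 and 42.9 in CTLA-4 KO cells, against 48.1, 46.5 and 78 in wild type cells, with a log2 difference of −0.43 ± 0.27 (adjusted p = 0.488).

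**Figure D3:**
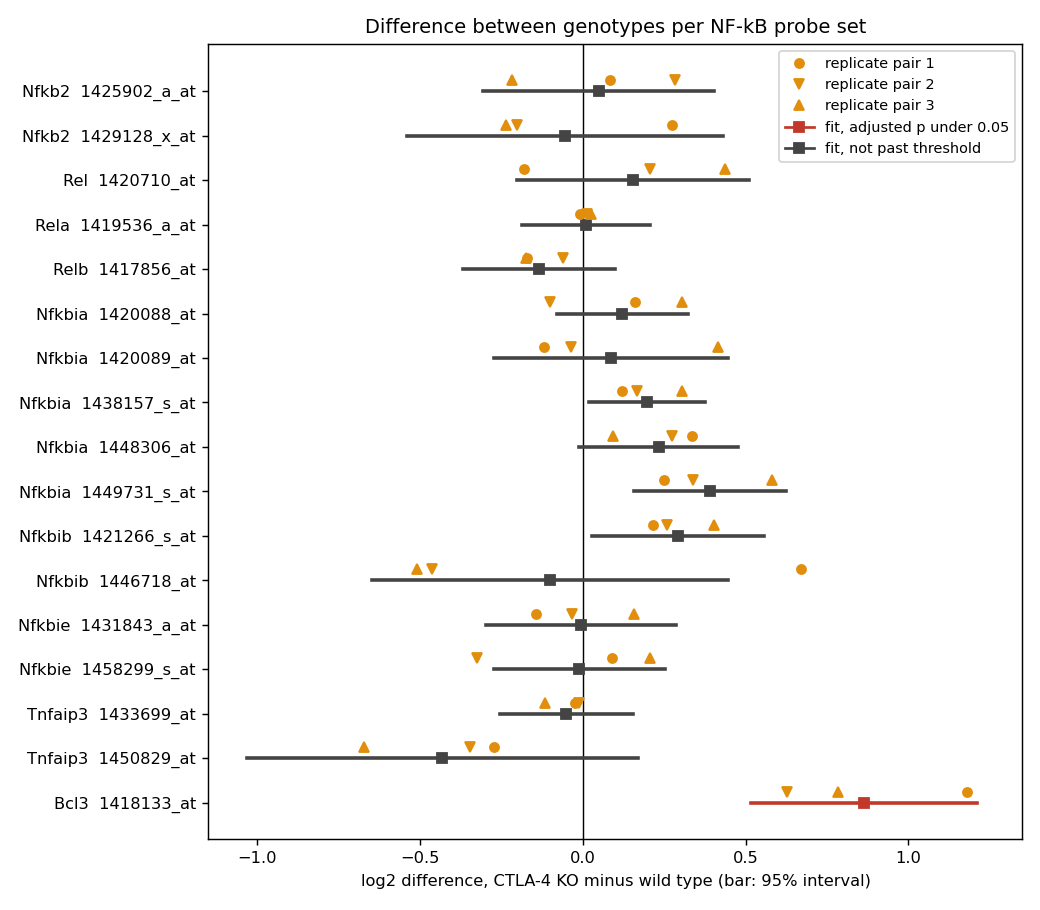
Log2 difference (CTLA-4 KO minus wild type, horizontal axis) of each NF-kB probe set (rows), with the fit and its 95% interval as squares and bars and the 3 replicate pairs as separate marks. Bcl3 alone passed the threshold, all 5 Nfkbia estimates lie right of 0, and the 2 widest intervals are those of the dim Tnfaip3 and Nfkbib probe sets.

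Across the 17 probe sets, all of which passed the filter on dim values, 10 differences were positive and 7 negative, with a median of 0.05 beside −0.04 over all tested probe sets. With each array centred on its median, 14 were positive and 3 negative, with a median of 0.14 beside 0.05 over all tested probe sets. The 95% interval lay inside a 2-fold difference either way for 15 of the 17, the exceptions being Bcl3 and the dim Tnfaip3 probe set, and for 84.5% of all tested probe sets. In 7 of the 17, or 41.2%, the genotypes did not overlap, and 5 of these were higher in CTLA-4 KO cells. Over all tested probe sets 21.0% did not overlap in either direction, and 9.46% did so with CTLA-4 KO higher. The 7 came from 4 genes, and 3 were probe sets of Nfkbia. By the brightest probe set of each gene, 3 of 9 did not overlap, beside 22.8% of all 11990 genes. At an unadjusted p of 0.05, 4 of the 17 passed, beside 15.6% of all probe sets. With the replicate block 2 passed, Bcl3 and 1449731_s_at of Nfkbia, beside 8.66% of all probe sets. The members were chosen with earlier results of these data known, so these shares are a description and no test.

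**Figure D4:**
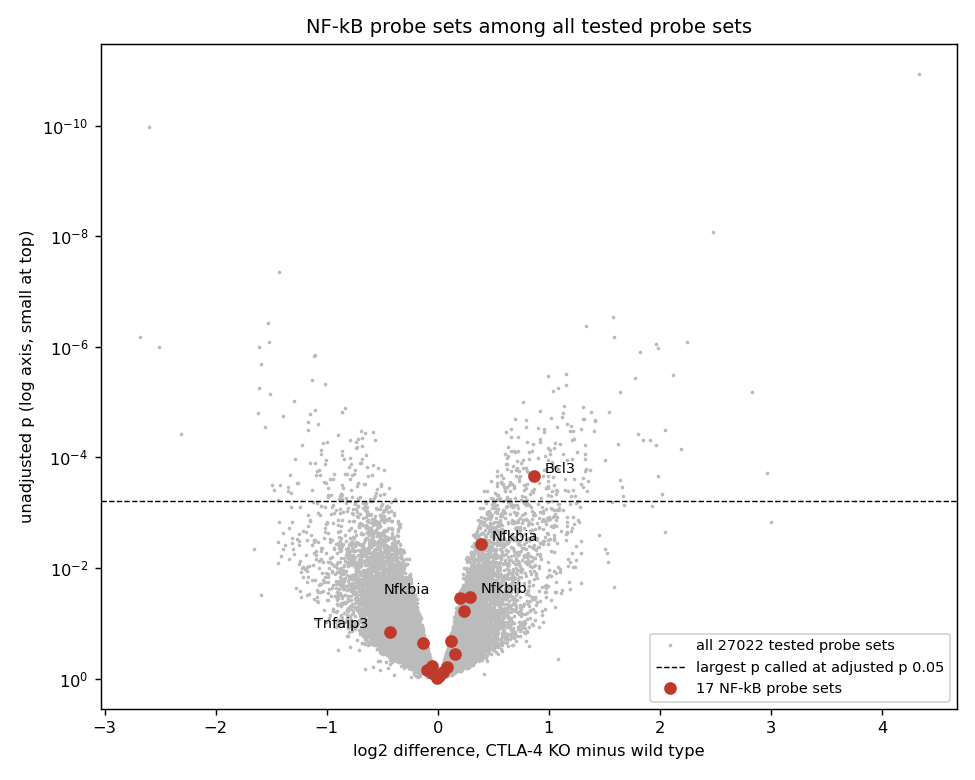
Unadjusted p (vertical, log axis with small values at the top) against log2 difference (horizontal) for the 27022 tested probe sets in grey and the 17 NF-kB probe sets in red. Bcl3 lies above the dashed line of the largest called p, and the others below it.

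By a fixed measure of likeness, the root mean square difference between mean-centred log2 values over the 6 arrays, the genes closest to Bcl3 were Dlgap5 (0.105), Mfsd2a (0.114), Tatdn1 (0.114), Mybl2 (0.121) and Frmd4b (0.123). The median over 21981 candidate probe sets was 0.522. The 5 were picked by their likeness to Bcl3 on these arrays, so a similar genotype difference follows from the choice and is no test. Of these 5 only Tatdn1 passed the threshold itself (adjusted p = 0.0383). Its intensities were 1196, 906 and 969 in CTLA-4 KO cells, against 648, 607 and 494 in wild type cells.

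Other genes of the pathway were compared by role, each gene by its brightest probe set. Of 85 genes listed 74 were tested. By that probe set, without the replicate block, 4 were higher and none lower. Over all 11990 genes 1.69% passed in either direction and 1.19% as higher. The 4 were Gadd45b and Icam1 among known targets, Nfkbid among the atypical IkB genes and Il1r1 among receptors. The median log2 difference over the 74 was −0.01, beside 0.0018 over all genes tested. With the replicate block 11 were higher and 9 lower, beside 8.92% of all genes in either direction. The genotypes did not overlap in 31 of the 74 genes, or 41.9%, beside the 22.8% of all genes given above. The lists were chosen with earlier results of these data known, so these shares describe them and are no test.

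Nfkbid encodes IkBNS, an atypical nuclear IkB protein like Bcl3. It had 8114, 7816 and 8276 in CTLA-4 KO cells, against 6019, 6042 and 5309 in wild type cells. The groups were well apart, and the log2 difference was 0.48 ± 0.09 (limma adjusted p = 0.0343; blocked by replicate, 0.00652). The call was lost in each of the 6 fits without 1 array, without the dimness filter (adjusted p = 0.0853) and with the Actb ratio as a term (0.132). Nfkbiz, a further atypical IkB gene named here after its values were seen, averaged 5810 ± 438 in CTLA-4 KO cells and 5861 ± 747 in wild type cells (SD, n = 3 arrays each). Of 3 annotated Nfkbid promoters, 1 held kappa B matches, in the stretches shown here. Of the other pathway genes that passed, Gadd45b and Icam1 had no match in their 1 window each, and Il1r1 had 1 match in 1 of its 2 windows. Stretches without the 3 leading G or the 2 closing C of the consensus were not counted. The lack of a match thus does not show that a window holds no kappa B site.
Nfkbid (chr7:30422170-30422199, plus strand): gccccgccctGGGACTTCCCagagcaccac
Nfkbid (chr7:30422215-30422244, plus strand): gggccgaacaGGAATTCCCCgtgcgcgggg

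Of the 16 genes of this list, which also holds enzymes that restrain the IkB kinase, Nfkbid alone passed without the replicate block, and 6 had positive differences. The median was −0.06, and over all genes 1.69% passed in either direction without the block. Peli1, a ubiquitin ligase that promotes c-Rel degradation in mouse T cells, had 5710.2, 5594 and 6059 in CTLA-4 KO cells, against 7385, 7057 and 7799 in wild type cells, with no overlap. Its log2 difference was −0.36 ± 0.09 (adjusted p = 0.0798; blocked by replicate, 0.0197), and its 4 other probe sets were also negative. Otud7b, a deubiquitinase that acts on TRAF3, had a log2 difference of −0.48 ± 0.13 (adjusted p = 0.103, and 0.0162 with the block). Its other probe sets had −0.27, −0.66 and −0.06 (adjusted p = 0.45, 0.333 and 0.918).

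Of 25 known target genes tested, 2 rose and none fell by the brightest probe set without the replicate block, with a median of 0.06. Other probe sets of Ccnd2 did fall, as given below. With the block 5 passed as higher, Gadd45b, Icam1, Fas, Myc and Bcl2l1, and 3 as lower, Ccnd2, Il2 and Traf1. The shares over all genes, in either direction, were 1.69% without the block and 8.92% with it. Gadd45b, a stress-response gene that NF-kB induces, had 1279.5, 1302 and 1515 in CTLA-4 KO cells, against 433, 531 and 376 in wild type cells. The log2 difference was 1.59 ± 0.15 (adjusted p = 0.00193), and it held in all 6 fits without 1 array and with the Actb term (adjusted p = 0.0124). Of its other probe sets 1449773_s_at had 1.33 and 1420197_at 0.31 (adjusted p = 0.00161 and 0.606). Icam1, an adhesion molecule that binds LFA-1, had 1543, 1455 and 1529.6 in CTLA-4 KO cells, against 791, 754 and 712 in wild type cells. Its log2 difference was 0.99 ± 0.11 (adjusted p = 0.00422), and it held in all 6 fits without 1 array but not with the Actb term (0.0626).

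Ccnd2, the cell cycle gene for cyclin D2, had 6782, 5771 and 4235 in CTLA-4 KO cells, against 8435, 8239.6 and 7463 in wild type cells for its brightest probe set. That probe set did not pass (log2 difference −0.55 ± 0.15, adjusted p = 0.113), whereas 4 of its 6 other probe sets fell by 0.68 to 0.87 on the log2 scale (adjusted p from 0.0168 to 0.0489). With the replicate block the brightest probe set passed as lower (adjusted p = 0.00652). Il6, Csf2, Ier3 and Ccl3 of this list were below the filter floor.

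None of the 20 upstream signalling genes passed without the replicate block, with a median of −0.01 and differences between −0.36 and 0.41. Ube2n, the ubiquitin-conjugating enzyme that builds signalling chains for the IkB kinase, had 2073, 2154 and 2323 in CTLA-4 KO cells, against 1693, 1586 and 1640.4 in wild type cells. Its log2 difference was 0.41 ± 0.10 (adjusted p = 0.0873, and 0.0181 with the block), while its other probe set had 0.05. Birc2, the ubiquitin ligase cIAP1, had −0.36 ± 0.12 (adjusted p = 0.169, and 0.0439 with the block), and Tab3, an adaptor of the kinase TAK1, had −0.28 ± 0.12 (0.32, and 0.13 with the block).

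Among 13 receptors and proximal adaptors 1 rose and none fell without the replicate block, with a median of −0.06. With the block 4 passed as higher, Il1r1, Cd27, Tnfrsf1b and Myd88, and 3 as lower, Tnfrsf9, Cd28 and Irak1. Over all genes 1.69% passed in either direction without the block and 8.92% with it. The gene that rose in both was Il1r1, which binds interleukin-1 and signals through MyD88. It had 454, 472 and 430.1 in CTLA-4 KO cells, against 82, 174 and 41.9 in wild type cells, a log2 difference of 2.19 ± 0.35 (adjusted p = 0.0173). The call was lost without CTLA-4 KO replicate 2, without the dimness filter (adjusted p = 0.0647) and with the Actb term (0.0578). The promoter windows of Il1r1 lie on chromosome 1. Whether DNA linked to the targeted Ctla4 gene had a part in the Il1r1 difference was not tested. Cd27, a receptor of the TNF receptor family, had 2788, 2802 and 3282 in CTLA-4 KO cells, against 2103, 2173 and 2129 in wild type cells (0.46 ± 0.10, adjusted p = 0.0624, and 0.0096 with the block). Cd28, the costimulatory receptor that shares its ligands with CTLA-4, had 9506, 9685 and 9226 in CTLA-4 KO cells, against 11626, 11698 and 12569 in wild type cells. Its log2 difference was −0.34 ± 0.08 (adjusted p = 0.0731, and 0.0299 with the block), while its other probe set had −0.12 (adjusted p = 0.554).

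**Figure D5:**
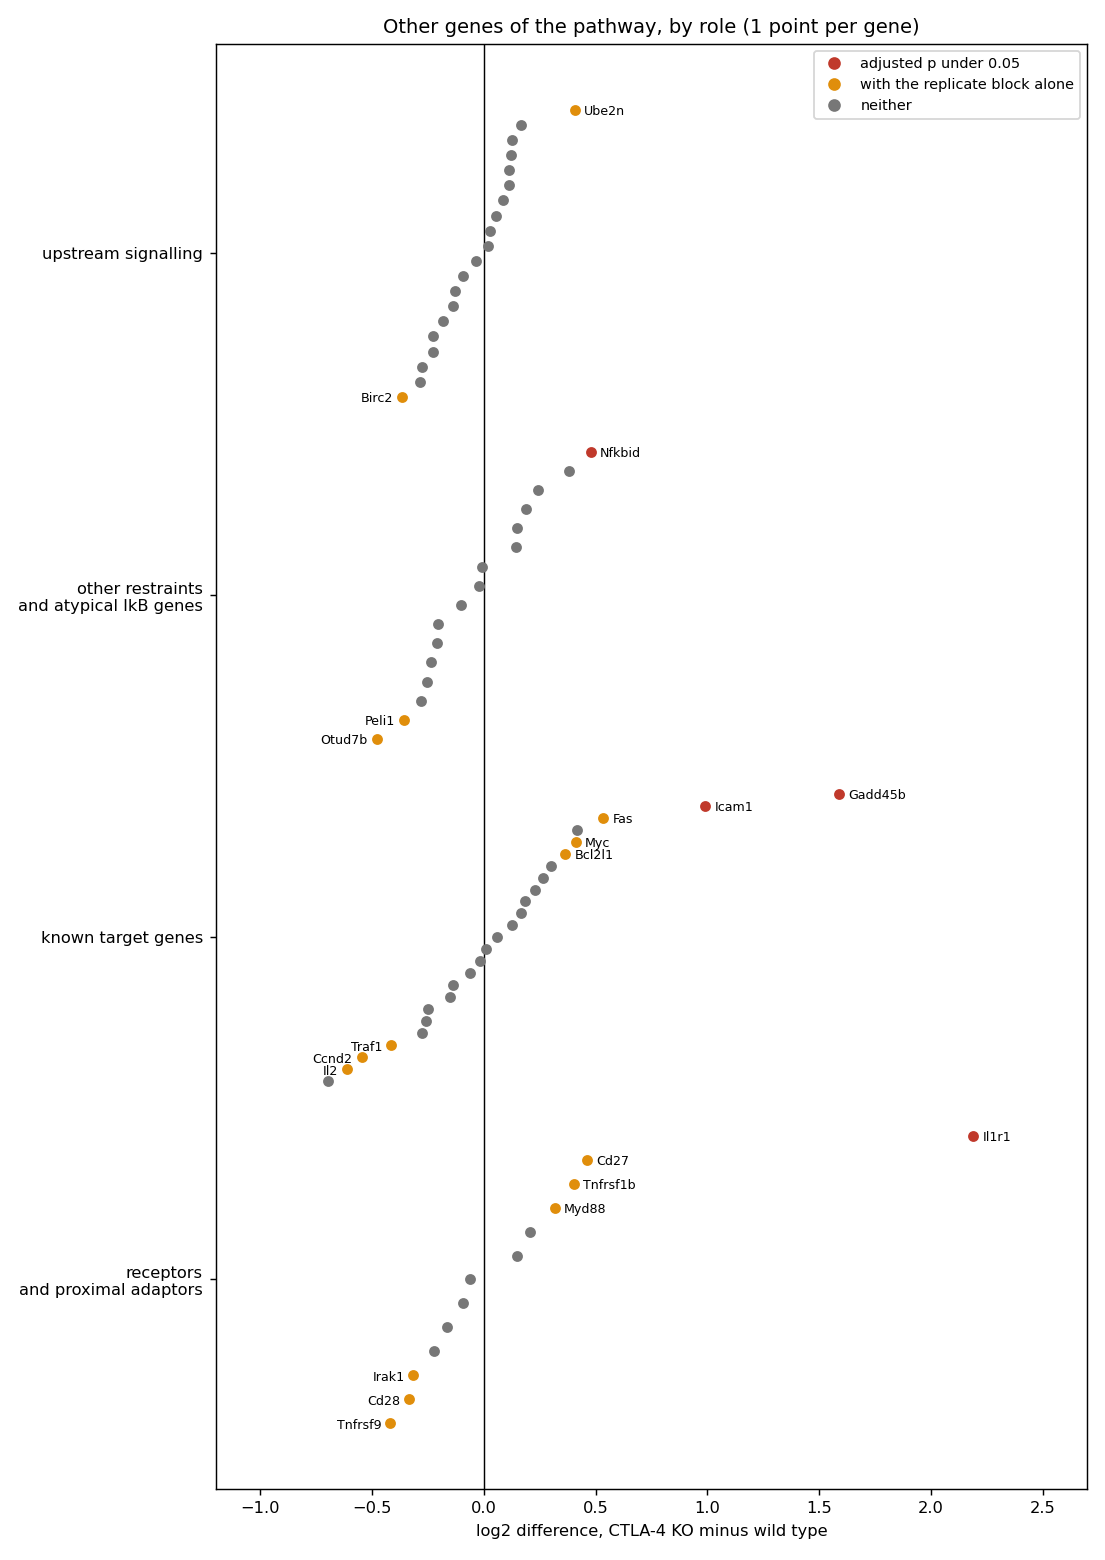
Log2 difference (CTLA-4 KO minus wild type, horizontal axis) of the other pathway genes, 1 point per gene, in 4 lists by role (rows). By the brightest probe set of each gene, Gadd45b, Icam1, Nfkbid and Il1r1 passed the threshold and are red. Genes whose brightest probe set passed with the replicate block alone are orange and lie on both sides of 0.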

How the data were processed

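Affymetrix arrays measured RNA of sorted T cells, with groups taken from the sample titles. The authors deposited 1 linear intensity per probe set and array, already scaled, since the mean after trimming 2% at each end was 500.003 on every array. The submitters' processing notes name MAS5 and Partek, without versions. No source used here says how faint signals were handled.

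Intensities were turned into log2(intensity + 16), 64 control probe sets were left out, and probe sets whose mean log2 value reached the 40th percentile (an intensity of 35.4) were kept. A linear model without a block was fitted to these 27022 probe sets with limma 3.58.1 in R 4.3.3 (4 residual degrees of freedom, eBayes with trend). Tests were two-sided, with Benjamini-Hochberg adjustment over all of these probe sets. The model was also run on simulated data with independent noise and no pairs, which does not show how it behaves on paired arrays. Median centring of the arrays moved the share of higher calls from 62.5% to 81.5%.

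The replicate numbers were taken to pair the arrays where pairs or the replicate block are given. In pairs 1, 2 and 3 the arrays' departures from their group means had correlations of 0.371, 0.24 and 0.254, each over 0.1. The labels state no block, so the main fit left the pairs out and called 339 probe sets, against 2341 with the replicate block. The counts of genes called lower depend on this choice. As separate animals are not stated, p-values set the genotype difference only against the spread among these samples, which may be technical in part. Replicate 2 alone was high in Xist in both genotypes, and without the block the spread within each genotype includes that difference. Intervals of 95% are limma's.

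Gene names came from an annotation of the array, updated by gene ID through a RefSeq table of GRCm38.p6. Every member probe set was named, from each list the genes past the threshold and the 3 with the smallest p, and the 5 genes closest to the member with the smallest p. The members and lists were chosen with earlier results of these data known. Lists are described by counts and medians beside those over all features. Some listed genes were not analysed here.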

Additional observations from a re-analysis of the deposited data

How the results depend on the processing

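The settings tried were the dimness filter, pseudocount, scaling, variance moderation, array weights, the replicate block, a stricter threshold, integrity ratios as terms and leaving out arrays. A mean of a gene's probe sets, added after seeing the data, called 1 member gene and 6 pathway genes. The count over all probe sets, 339, became 111 without the dimness filter, 20 without an intensity trend, 0 in limma without moderation (3611 at an unadjusted p under 0.05), 521 with array weights, 2341 with the replicate block, 45 at a threshold of 0.01, 22 with the Actb term and 46 in replicates 1 and 3 alone. The count of 1 member probe set became 2 with the replicate block and with the Gapdh term. It became 0 without the filter, trend or moderation, at the threshold of 0.01, with the Actb term and in replicates 1 and 3 alone. In these settings 3 or 4 of the 17 had an unadjusted limma p under 0.05. Beside them were 2708 to 4216 of all 27022 probe sets, and 5275 of 45037 without the filter. The count of 4 pathway genes became 2 without the filter, 1 without a trend, 0 without moderation, 20 with the block, 2 at the threshold of 0.01, 1 with the Actb term and 2 in replicates 1 and 3 alone. Leaving out 1 array gave 62 (without CTLA-4 KO replicate 2) to 217 probe sets, 0 to 1 members and 2 to 3 pathway genes. At an unadjusted limma p under 0.05 these fits had 2 or 3 members, beside 2790 to 4326 of all 27022 probe sets. Ctla4 kept its log2 difference of −2.60 without moderation, where its adjusted p was 0.0538. The cause of these shifts was not tested. The replicate block changed no other member's call. No called member changed sign. With 3 arrays a genotype, the SE of the member differences ran from 0.08 to 0.27 on the log2 scale, which limits what could be called.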
